A study of Mus musculus with 8 samples.

Results

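The 49 genes described here encode ribosome biogenesis factors, the proteins that transcribe, modify, cut and fold ribosomal RNA and assemble it with ribosomal proteins. They were taken by symbol from a count table of 15566 genes, and all 49 were found. Messenger RNA had been sequenced from classical Ly6C-high monocytes, the inflammatory monocytes that leave the marrow for blood and tissue. The cells were sorted from femur and tibia marrow of untreated male C57BL/6 mice aged 8 weeks. The 4 deficient samples came from LysMDCommd10 mice, in which Commd10, a COMMD family adaptor of protein trafficking, is deleted with a Cre recombinase driven from LysM, a gene active in monocytes, macrophages and neutrophils. The 4 control samples came from weight-matched littermates that were Commd10fl/fl, with the gene floxed and not deleted. The gate took living CD45+ CD11b+ CD115+ CD117- Ly6G- cells, and the labels do not tie samples to mice or litters. The p-values therefore describe spread among the samples only, which may be technical.

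Ribosomes are built in the nucleolus, where RNA polymerase I makes a long precursor RNA. Small nucleolar RNA-protein complexes (snoRNPs) guide its chemical modification, and large assemblies of processing factors cut it into the RNAs of the 40S and 60S subunits. The output of this pathway follows growth and division, and in blood formation it is high in dividing progenitors and lower in mature cells. MYC is a known activator of many of these genes.

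Total counts were 17099454 to 30722262 in the deficient libraries and 14231121 to 31040255 in the control libraries. Cre, listed as a gene of its own, had 499 to 987 counts in the deficient libraries and 0 in all 4 control libraries (at most 0.211 CPM, counts per 1000000, taking 3 counts as the limit for counting error). By library, Cre was at 32.1, 16.5, 33.3 and 24.8 CPM in deficient 1 to 4. Commd10 fell to 21.3 ± 2.17 CPM in deficient libraries, against 29.2 ± 1.46 CPM in control libraries (SD, n = 4 each; log2 fold change -0.46, SE 0.07, edgeR adjusted p = 0.0292), a call lost without deficient 4 (adjusted p = 0.138) or control 1, 3 or 4 (0.0646 to 0.113). The counts span the whole gene, so this level does not say how many cells lost it. Only deficient mice carry Cre, so its effects and those of the deletion cannot be told apart. The running numbers in the sample titles are also separate between the genotypes, and what they stand for is not given. Of the classical monocyte markers, Ptprc, Itgam, Csf1r, Ly6c2 and Ccr2 were at 291 CPM or more in every library, Fcgr1 at 140 to 224 CPM and Cd14 at 21.8 to 41.1 CPM, while Kit and Ly6g, which mark cells left out of the gate, were at no more than 0.423 CPM. Of the 8 classical monocyte markers tested, 5 were above 0 (median log2 fold change 0.12) and 0 passed with edgeR; 3 were higher and 1 lower at an unadjusted p under 0.05, and DESeq2 called 3 higher. Over all tested genes, 50.2% were above 0, 11.9% were higher and 12.1% lower at that p, and DESeq2 called 3.48% of 11341 higher.

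Most ribosome biogenesis factors had slightly higher mRNA levels in deficient monocytes, and few of the differences passed the test. Of the 49 genes, 2 rose, Heatr1 and Ppan, and 0 fell at an adjusted p under 0.05 (edgeR's quasi-likelihood test, Benjamini-Hochberg over 12938 tested genes). Among all tested genes edgeR called 0.873%, with 0.356% higher and 0.518% lower. DESeq2 called 5 members higher and 0 lower, where it called 3.48% of 11341 genes higher and 3.84% lower. Without edgeR's robust shrinkage 0 members passed (adjusted p = 0.0503 for Heatr1 and 0.0555 for Ppan), and without any 1 library 0 to 6 did. The log2 fold change was above 0 in 42 of the 49, as in 50.2% of all tested genes, and its median was 0.14, against 0.00 for all tested genes. At an unadjusted p under 0.05, 20 members were higher and 1 was lower, where 11.9% and 12.1% of all tested genes were. In 8 members all 4 deficient values lay above all 4 control values, and in 1 they lay below, a separation seen in 5.93% and 6.70% of tested genes. The differences were small: 19 members lay within 0.1 of 0 on the log2 scale, 14 were above 0.2, and the outermost was 0.44. The members were measured in the same 8 libraries, so they are not independent observations. In sorted bulk RNA, a change in the mix of cells and a change of RNA per cell cannot be told apart.

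**Figure D1:**
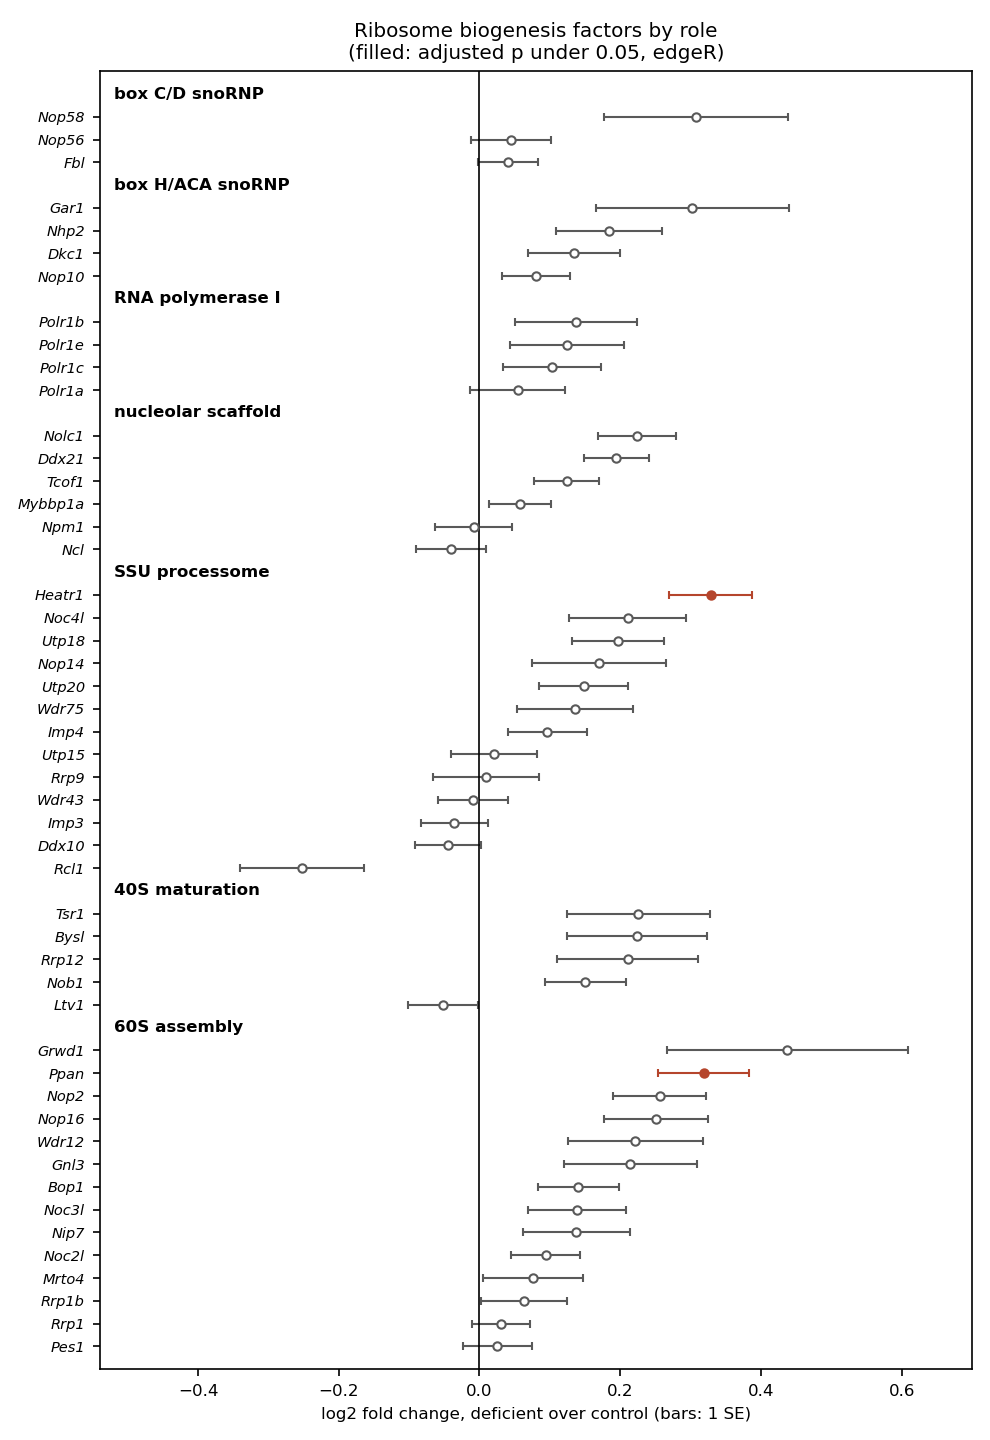
Log2 fold change of each of the 49 factors, deficient over control (horizontal axis), with bars of 1 SE, grouped by role; filled points passed an adjusted p of 0.05. Heatr1 at 0.33 and Ppan at 0.32 are the filled points, and 42 of 49 points lie right of 0.

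Heatr1 encodes a large repeat protein of the early small-subunit (SSU) processome that is needed for transcription and early processing of the precursor RNA. Heatr1 (ENSMUSG00000050244, GRCm38 chromosome 13, 12395027 to 12440289, plus strand) was at 61.4, 70.6, 59.9 and 67.7 CPM in deficient 1 to 4, against 52.7, 50.2, 49.9 and 53.9 CPM in control 1 to 4. All deficient values were above all control values, with deficient 2 and 4 the highest. Its mean was 64.9 ± 5.08 CPM in deficient and 51.7 ± 1.95 CPM in control libraries (SD, n = 4 each), a log2 fold change of 0.33 (SE 0.06, edgeR adjusted p = 0.0361). The exact permutation p was 0.0286, two-sided, the smallest that 4 against 4 allows. Its call was lost without deficient 2 (adjusted p = 0.0568), deficient 4 (0.152), control 1 (0.0709), control 3 (0.126) or control 4 (0.113), with log2 fold changes of 0.29 to 0.36 over all fits that left out 1 library.

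Ppan, the mouse counterpart of the Drosophila peter pan gene, encodes a factor of early 60S assembly. Ppan (ENSMUSG00000004100, chromosome 9, 20888175 to 20892178, plus strand) was at 21.2, 23.5, 22.1 and 24.6 CPM in deficient 1 to 4, against 18.4, 17.9, 19.4 and 17.8 CPM in control 1 to 4. The genotypes did not overlap, and deficient 4 and 2 were again highest. The means were 22.9 ± 1.5 and 18.4 ± 0.716 CPM in deficient and control libraries (SD, n = 4 each; log2 fold change 0.32, SE 0.06, edgeR adjusted p = 0.0459; exact permutation p = 0.0286, two-sided). Its call was lost without deficient 2 (adjusted p = 0.0820), deficient 4 (0.173) or control 1 (0.0891), 2 (0.0514), 3 (0.124) or 4 (0.158), with log2 fold changes of 0.28 to 0.35. The annotated exons of Ppan together form 1 block of 4004 bases, the whole gene, so reads from its introns may be counted. Of these bases, 4.12% are shared with small nucleolar RNA genes on the same strand.

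The promoters of these genes are shown because theirs were the changes that passed the test. Each line gives the 250 bases before the RefSeq start of transcription, read 5′ to 3′ on the gene's strand, from the RefSeq table of GRCm38.p6. Capitals mark CCGGAAGT, a motif of ETS family factors, in Heatr1 (chr13:12395125-12395374, plus strand), and TTTATAAA, a TATA-type run, in Ppan (chr9:20887925-20888174, plus strand). The first base is 99 bases before the start in the Ppan run and 16 before it in the Heatr1 motif. Ppan also holds CCGGAAGT, with its first base at position 19 after the start. The RefSeq start of Heatr1 lies inside the gene as GENCODE M21 draws it.
Heatr1: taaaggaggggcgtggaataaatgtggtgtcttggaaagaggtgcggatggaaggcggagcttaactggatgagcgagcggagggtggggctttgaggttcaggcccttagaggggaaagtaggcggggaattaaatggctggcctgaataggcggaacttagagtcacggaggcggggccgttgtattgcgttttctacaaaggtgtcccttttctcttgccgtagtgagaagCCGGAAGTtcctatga
Ppan: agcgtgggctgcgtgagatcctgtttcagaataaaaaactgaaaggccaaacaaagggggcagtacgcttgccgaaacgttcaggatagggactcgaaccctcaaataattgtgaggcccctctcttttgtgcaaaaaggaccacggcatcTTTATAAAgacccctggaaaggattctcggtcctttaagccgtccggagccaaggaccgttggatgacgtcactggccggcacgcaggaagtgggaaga

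RNA polymerase I, which makes the precursor of the large ribosomal RNAs, had 4 measured subunits, of which 0 passed the test with edgeR or DESeq2 and 0 had an unadjusted p under 0.05. All 4 had log2 fold changes above 0, from 0.05 for Polr1a, the largest catalytic subunit, to 0.14 for Polr1b, the other catalytic subunit. Polr1b was at 12.4, 13.3, 11.6 and 13.95 CPM in deficient 1 to 4 and 13.1, 11.7, 10.6 and 11.2 CPM in control 1 to 4 (log2 fold change 0.14, SE 0.09, edgeR adjusted p = 0.349). Control 1 lay above deficient 1 and 3, so the genotypes overlapped. Polr1e, a subunit that helps recruit the enzyme to ribosomal DNA, was at 11.9, 13.4, 12.6 and 13.2 CPM in deficient 1 to 4 and 12.8, 11.6, 12.0 and 10.51 CPM in control 1 to 4 (log2 fold change 0.12, SE 0.08, edgeR adjusted p = 0.360). Here control 1 lay above deficient 1 and 3 as well. The exact permutation p, two-sided, was 0.171 for Polr1b and 0.143 for Polr1e. Polr1c, a subunit shared with RNA polymerase III, had a log2 fold change of 0.10 (SE 0.07).

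Box C/D snoRNPs, which guide methylation of ribosomal RNA, were represented by their core proteins Nop56, Nop58 and the methyltransferase Fbl, of which 0 of 3 passed with edgeR or DESeq2 and 1 was higher at an unadjusted p under 0.05. Nop58 was at 38.9, 50.2, 38.3 and 39.9 CPM in deficient 1 to 4, against 42.7, 31.4, 29.8 and 31.01 CPM in control 1 to 4. Control 1 lay above 3 of the 4 deficient libraries, and the means were 41.8 ± 5.62 and 33.7 ± 6.04 CPM in deficient and control libraries (SD, n = 4 each; log2 fold change 0.31, SE 0.13, edgeR adjusted p = 0.197). Fbl had a log2 fold change near 0, at 59.0, 56.2, 55.7 and 57.1 CPM in deficient 1 to 4 and 56.8, 54.2, 55.7 and 55.2 CPM in control 1 to 4 (log2 fold change 0.04, SE 0.04, edgeR adjusted p = 0.589). By the exact permutation test, two-sided, p was 0.114 for Nop58 and 0.143 for Fbl. Nop56, which pairs with Nop58 in the particle, had a log2 fold change of 0.04 (SE 0.06).

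Box H/ACA snoRNPs, which guide the conversion of uridine to pseudouridine, had 4 members above 0, of which 0 passed with edgeR or DESeq2 and 2 were higher at an unadjusted p under 0.05. Gar1 was at 7.90, 9.78, 7.37 and 7.30 CPM in deficient 1 to 4, against 8.09, 5.59, 5.55 and 6.81 CPM in control 1 to 4 (log2 fold change 0.30, SE 0.14, edgeR adjusted p = 0.204). The value of control 1 exceeded those of deficient 1, 3 and 4. Nhp2 was at 47.1, 56.9, 44.3 and 52.5 CPM in deficient 1 to 4, against 47.6, 44.9, 42.0 and 42.5 CPM in control 1 to 4 (log2 fold change 0.18, SE 0.08, edgeR adjusted p = 0.167). Deficient 2 was highest and control 1 lay above deficient 1 and 3. Gar1 and Nhp2 each had an exact permutation p of 0.143, two-sided. The pseudouridine synthase Dkc1 (0.13, SE 0.07) and the small subunit Nop10 (0.08, SE 0.05) had smaller log2 fold changes.

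Among 6 nucleolar scaffold and chaperone genes, 4 were above 0 and 3 were higher at an unadjusted p under 0.05. With edgeR 0 passed and with DESeq2 2 did, Ddx21 and Nolc1. Ddx21, an RNA helicase that acts in transcription by RNA polymerase I and in snoRNA binding, was at 130, 139, 130 and 141 CPM in deficient 1 to 4, against 121, 123, 114 and 114 CPM in control 1 to 4. The genotypes did not overlap (log2 fold change 0.19, SE 0.05, edgeR adjusted p = 0.0589; exact permutation p = 0.0286, two-sided). Nolc1, a chaperone of snoRNPs, did not overlap either, at 53.8, 62.3, 56.4 and 60.04 CPM in deficient 1 to 4 and 52.3, 48.8, 50.2 and 47.9 CPM in control 1 to 4 (log2 fold change 0.22, SE 0.06, edgeR adjusted p = 0.0646; exact permutation p = 0.0286, two-sided). Treacle, the product of Tcof1, links RNA polymerase I to its genes, and Tcof1 averaged 198 ± 9.39 CPM in deficient and 182 ± 7.22 CPM in control libraries (SD, n = 4 each; log2 fold change 0.12, SE 0.05, edgeR adjusted p = 0.137). Mybbp1a, a nucleolar regulator of ribosomal DNA transcription, had a log2 fold change of 0.06 (SE 0.04).

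The factors with the highest CPM, nucleolin and nucleophosmin, had log2 fold changes near 0. Ncl (nucleolin) was at 307, 343, 311 and 298 CPM in deficient 1 to 4, against 337, 326, 323 and 308 CPM in control 1 to 4 (log2 fold change -0.04, SE 0.05, edgeR adjusted p = 0.644). Npm1 (nucleophosmin) was at 299, 352, 318 and 317 CPM in deficient 1 to 4, against 345, 324, 311 and 313 CPM in control 1 to 4 (log2 fold change -0.01, SE 0.05, edgeR adjusted p = 0.943). In both genes deficient 2 and control 1 were the highest of their genotype. Npm1 has processed copies in the genome that could share its reads, which makes its level less certain. Across the 49 genes, the log2 fold change had a Spearman correlation of -0.38 with the mean CPM, while across the 12938 tested genes it was 0.14; these values describe genes measured in the same 8 libraries. The median log2 fold change was 0.06 in the 24 members with higher CPM and 0.17 in the 25 others, a split by read share that also depends on gene length.

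**Figure D2:**
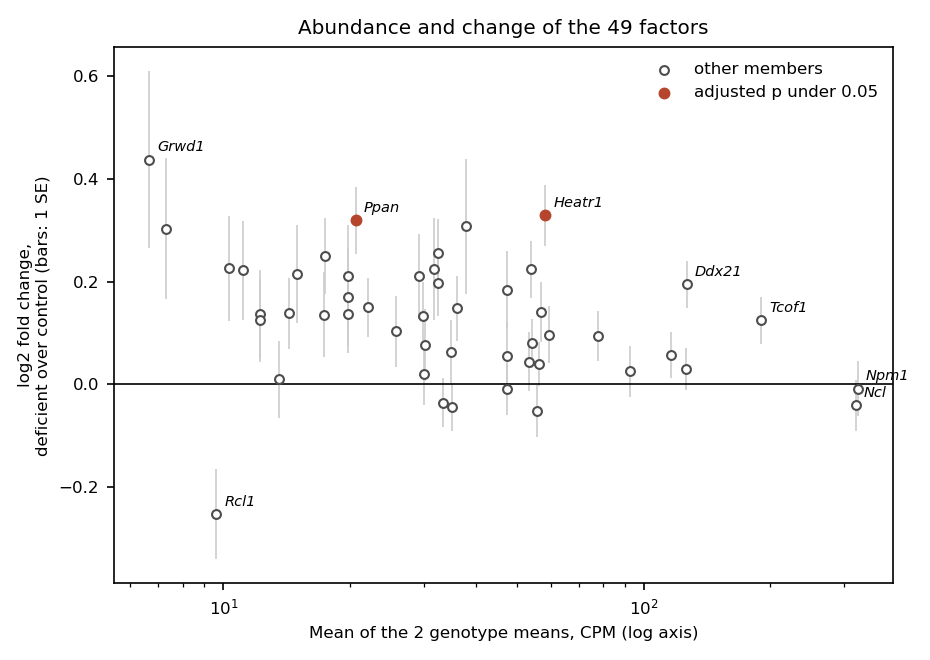
Mean CPM of each factor, not corrected for gene length (horizontal, log axis), against its log2 fold change, deficient over control (vertical, bars of 1 SE); filled points passed an adjusted p of 0.05. The members with the highest CPM, Npm1 and Ncl, sit at -0.01 and -0.04, and the member with the lowest CPM, Grwd1, at 0.44 with the widest bar.

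The SSU processome, the particle that folds and first cuts the RNA of the 40S subunit, had 13 members, of which Heatr1 rose, 0 fell, and 9 had log2 fold changes above 0. At an unadjusted p under 0.05, 4 were higher and 1 lower, and DESeq2 called Heatr1 alone. Utp18 was at 31.4, 37.2, 33.0 and 36.6 CPM in deficient 1 to 4, against 31.5, 30.6, 30.3 and 28.4 CPM in control 1 to 4. Deficient 1 lay just under control 1, and the other deficient libraries were above all controls (log2 fold change 0.20, SE 0.06, edgeR adjusted p = 0.112; exact permutation p = 0.0571, two-sided). Noc4l, Nop14, Utp20, Wdr75 and Imp4 had log2 fold changes of 0.21, 0.17, 0.15, 0.14 and 0.10. Those of Utp15, Rrp9, Wdr43, Imp3 and Ddx10 were 0.02, 0.01, -0.01, -0.04 and -0.04. Utp15, Wdr43 and Wdr75 belong to the same early subcomplex as Heatr1, and differences between members were not tested. Rcl1, whose yeast counterpart acts in early cuts of the 18S RNA precursor, was the 1 member with all deficient values below all control values. It is named here after its values were seen. It was at 8.16, 9.84, 8.19 and 8.90 CPM in deficient 1 to 4, against 10.7, 11.2, 10.1 and 9.89 CPM in control 1 to 4 (log2 fold change -0.25, SE 0.09, edgeR adjusted p = 0.123).

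Later 40S maturation was covered by 5 genes, of which 4 were above 0, 0 passed with edgeR or DESeq2, and 3 were higher at an unadjusted p under 0.05. Nob1, the nuclease that makes the final end of the 18S RNA, was at 22.9, 22.3, 24.3 and 23.5 CPM in deficient 1 to 4, against 20.7, 20.9, 19.8 and 22.0 CPM in control 1 to 4. The genotypes did not overlap (log2 fold change 0.15, SE 0.06, edgeR adjusted p = 0.145; exact permutation p = 0.0286, two-sided). Bysl, a factor of the 40S precursor, was at 29.1, 38.0, 29.8 and 39.3 CPM in deficient 1 to 4, against 31.2, 29.8, 28.1 and 27.8 CPM in control 1 to 4. Only deficient 2 and 4 were above all controls (log2 fold change 0.22, SE 0.10, edgeR adjusted p = 0.20). The exact permutation p of Bysl was 0.20, two-sided. Bysl shares 9.37% of its exonic bases with Ccnd3 on the other strand, and Tsr1 (0.23, SE 0.10), a GTPase-like factor, shares 32.3% with Srr; strand-specific counting is not stated, so reads there may belong to either gene. Rrp12, a subunit export factor, had 0.21 (SE 0.10) and Ltv1, which leaves the late 40S precursor, had -0.05 (SE 0.05).

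The 14 genes of 60S assembly all had log2 fold changes above 0, from 0.03 for Pes1 to 0.44 for Grwd1, with a median of 0.14; Ppan rose and 0 fell. At an unadjusted p under 0.05, 7 were higher and 0 lower, and DESeq2 called 2 higher, Ppan and Nop2 (DESeq2 adjusted p = 0.0252 for Nop2). Nop2, a methyltransferase of the 28S RNA, was at 32.4, 39.3, 33.3 and 35.9 CPM in deficient 1 to 4, against 31.3, 29.3, 28.4 and 29.1 CPM in control 1 to 4. The genotypes did not overlap (log2 fold change 0.26, SE 0.07, edgeR adjusted p = 0.0727; exact permutation p = 0.0286, two-sided). Nop16 (0.25, SE 0.07) and Noc3l (0.14, SE 0.07) were also without overlap and did not pass with edgeR or DESeq2. Grwd1, whose yeast counterpart is a chaperone of a 60S ribosomal protein, had the largest log2 fold change of the 49 and a wide spread. It was at 5.56, 9.58, 6.26 and 9.17 CPM in deficient 1 to 4, against 6.29, 5.23, 5.76 and 5.45 CPM in control 1 to 4 (SE 0.17, edgeR adjusted p = 0.155), so that deficient 1 and 3 lay below control 1. In the complex of Pes1, Bop1 and Wdr12, the log2 fold changes were 0.03, 0.14 and 0.22. The GTPase gene Gnl3 had 0.21, Nip7 0.14, Noc2l 0.09, Mrto4 0.08, Rrp1b 0.06 and Rrp1 0.03. Noc2l shares 20.9% of its exonic bases with Samd11.

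**Figure D3:**
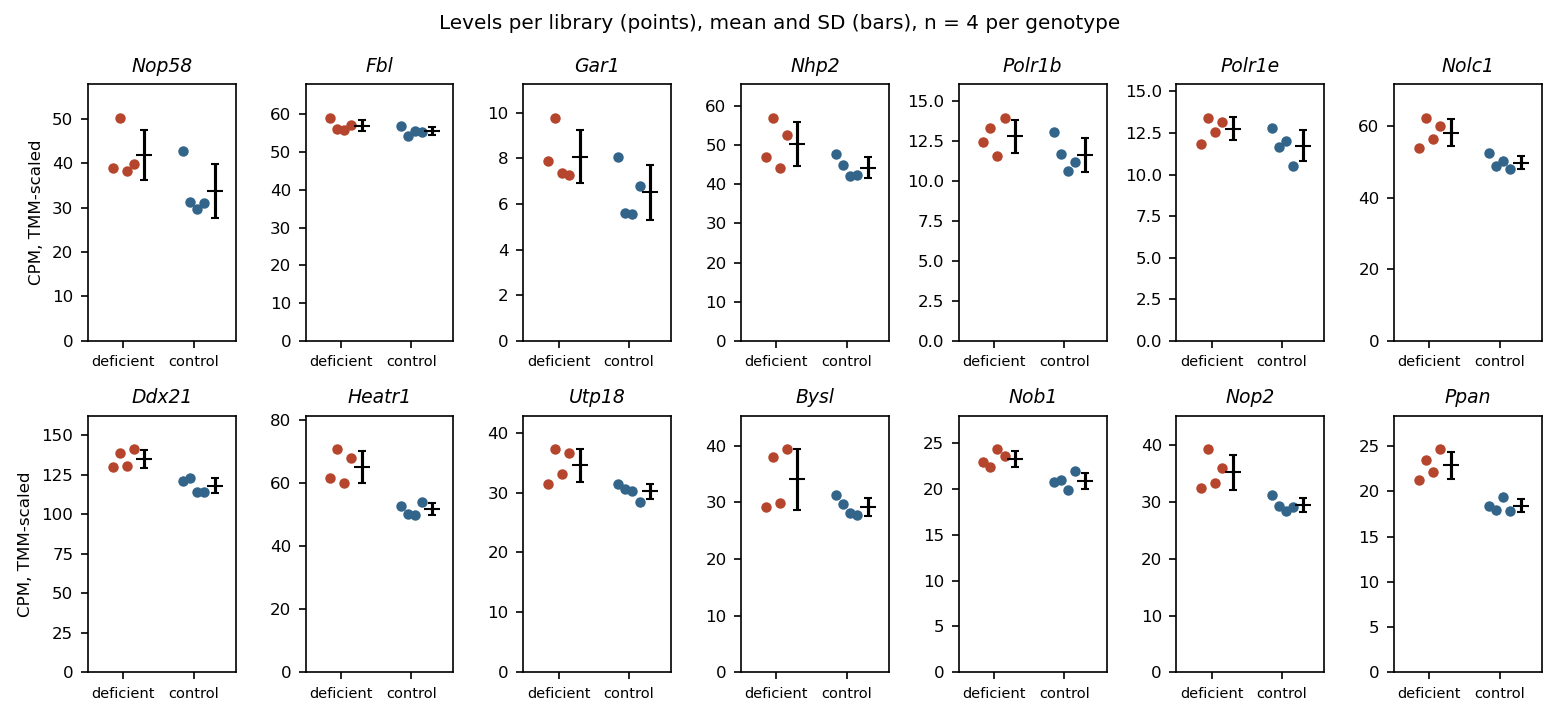
TMM-scaled CPM of the 14 factors described by library, deficient left and control right; points are libraries, and the bars beside them give the mean and SD (n = 4). In Heatr1, Ppan, Ddx21, Nolc1, Nob1 and Nop2 every deficient point lies above every control point, and in Nop58 and Gar1 one control point lies among the deficient ones.

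The libraries of a genotype were not alike in these genes. The mean log2 CPM of the 49 genes, relative to the mean of all 8 libraries, was -0.01, 0.17, -0.03 and 0.11 in deficient 1 to 4, against -0.002, -0.05, -0.09 and -0.10 in control 1 to 4. Deficient 2 and 4 stood above every control, whereas deficient 1 and 3 were slightly below control 1. Cre was lower in deficient 2 and 4 (16.5 and 24.8 CPM) than in deficient 1 and 3 (32.1 and 33.3 CPM), a relation that was not tested. Of the 49 genes, 30 had their highest value in deficient 2 and 12 in deficient 4, and 15 had their lowest in control 3 and 13 in control 4. Among the controls, control 1 was the highest for 26 genes. The median SD within a genotype was 0.09 on the log2 scale for the members and 0.11 for all tested genes. Without any 1 library, the number of members above 0 was 40 to 44 and the median ranged from 0.09 (without deficient 2) to 0.15, while 0 to 6 members passed.

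**Figure D4:**
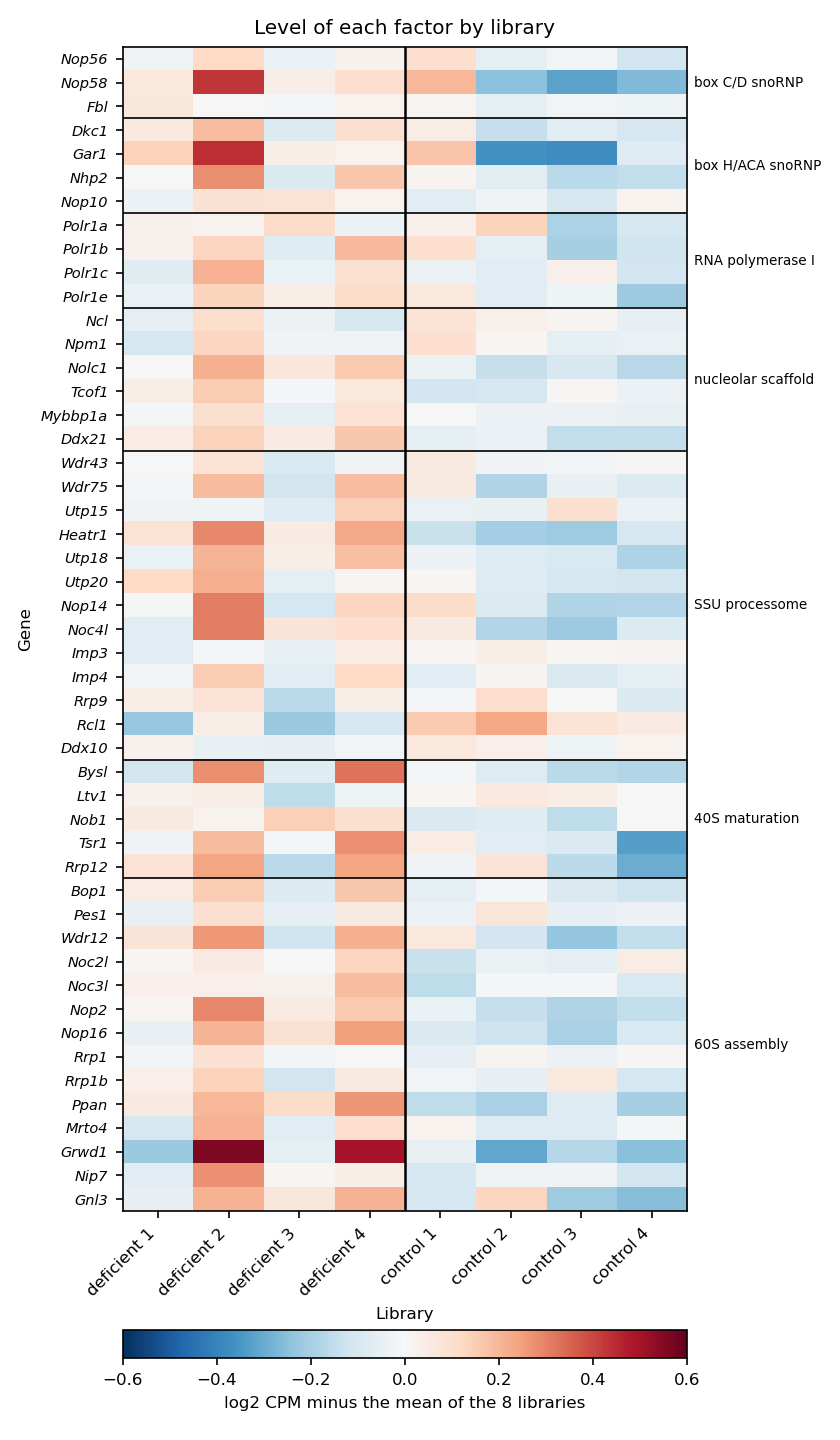
Log2 CPM of each factor minus its mean over the 8 libraries (colour), with genes in rows by role and libraries in columns, deficient left of the line. The columns of deficient 2 and 4 are the reddest, control 3 and 4 the bluest, and Rcl1 runs the other way.

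The neighbouring steps of the pathway were read from lists of genes that are not among the 49. Of 116 other tested biogenesis genes, 0 passed edgeR's test in either direction (DESeq2 called 4 higher and 5 lower), 25 were higher and 6 lower at an unadjusted p under 0.05, and 87 had log2 fold changes above 0, with a median of 0.06. Of all tested genes, 11.9% were higher and 12.1% lower at that p, and 50.2% were above 0. DESeq2 called 3.48% higher and 3.84% lower of 11341 genes, and its calls among the 116 were near those shares. By step, the median was 0.09 over 46 genes of 60S assembly (35 above 0), 0.06 over 41 of 40S assembly (32 above 0), 0.06 over 8 of RNA polymerase I transcription (5 above 0), 0.03 over 8 of snoRNP assembly (6 above 0) and 0.04 over 13 of the RNA exosome (9 above 0). Cytosolic ribosomal protein genes, whose products are the cargo of the pathway, had 28 of 81 above 0 and a median of -0.01. With either tool 0 of them passed, and at an unadjusted p under 0.05 there was 1 higher and 5 were lower. Translation factors had 26 of 37 above 0, a median of 0.08 and 0 past the threshold (10 higher and 2 lower at an unadjusted p under 0.05; DESeq2 called 2 higher and 1 lower). The members' higher median is a description, and no test of the difference between these lists was made.

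In lists of known regulators 0 genes passed edgeR's test. For the counts below, 11.9% of all tested genes were higher and 12.1% lower at an unadjusted p under 0.05. DESeq2 called 3.48% higher and 3.84% lower of 11341 genes, and 50.2% of tested genes were above 0. The MYC and mTORC1 lists hold both activators and inhibitors, so their medians do not measure activity of either pathway. In the MYC network, 3 of 10 tested genes were above 0 and the median was -0.06 (2 higher and 3 lower at an unadjusted p under 0.05; DESeq2 called 1 lower). Myc itself, named because it is a known activator of the pathway, averaged 15.2 CPM in deficient and 12.3 CPM in control libraries (log2 fold change 0.31, SE 0.11, edgeR adjusted p = 0.132). Of 14 genes of the mTORC1 pathway, which links nutrients to ribosome production, 7 were above 0 (median 0.00; 1 higher and 2 lower at an unadjusted p under 0.05; DESeq2 called 0). The p53 list holds Trp53 itself beside targets of p53, which respond when assembly of ribosomes is disturbed. Of its 11 tested genes, 6 were above 0 (median 0.05; 1 higher and 2 lower at an unadjusted p under 0.05; DESeq2 called 1 lower).

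Other gene lists also differed between the libraries, and their part in the result was not tested. Among all tested genes, 50.2% were above 0, and 11.9% were higher and 12.1% lower at an unadjusted p under 0.05. EdgeR called 0.356% higher and 0.518% lower, and DESeq2 called 3.48% higher and 3.84% lower of 11341 genes. The genotypes did not overlap in 5.93% (higher) and 6.70% (lower) of tested genes. All 40 cell cycle genes were above 0 (median 0.16, 0 past the threshold, 15 higher at an unadjusted p under 0.05, 2 called higher by DESeq2), with summed levels of 6362 to 7864 CPM in deficient and 5584 to 6815 CPM in control libraries. The cell cycle score was 0.31 in deficient 2 and -0.04, 0.03 and 0.03 in deficient 1, 3 and 4, against 0.07, -0.10, -0.08 and -0.21 in control 1 to 4. All 11 tested markers of neutrophil precursors were above 0 (median 0.51, 0 past the threshold, 5 higher at an unadjusted p under 0.05, 2 called higher by DESeq2). Their summed levels were 1921 to 3346 CPM in deficient and 1615 to 2145 CPM in control libraries. Chil3 alone made up 1521 to 2640 CPM of this in deficient and 1285 to 1791 CPM in control libraries. The list's score weighs each gene the same and was highest in deficient 4 (0.51) and deficient 2 (0.43). In these libraries the factors and the mature neutrophil markers (0.27 and 0.23) were also highest. The name of a list does not say which cells its reads came from. Ly6g, in the mature neutrophil list, was at no more than 0.423 CPM in any library. Stem and progenitor markers were low, 4 of 7 tested were above 0, and their summed levels were 67.7 to 72.5 CPM in deficient and 62.7 to 74.7 CPM in control libraries. Of 19 heat shock chaperone genes, 4 rose, among them Dnaja1 (log2 fold change 0.56, SE 0.07, edgeR adjusted p = 0.00960) and Hspa8 (0.37, SE 0.06, edgeR adjusted p = 0.0292), 0 fell and 18 were above 0 (median 0.27). At an unadjusted p under 0.05, 14 of them were higher, DESeq2 called 11 higher, and 12 did not overlap between genotypes. Their summed levels were 3920 to 4760 CPM in deficient and 3430 to 3601 CPM in control libraries, without overlap. Of 19 immediate early genes, which respond to handling of cells, 18 were below 0 (median -0.32, 0 past the threshold, 6 lower at an unadjusted p under 0.05, 2 called lower by DESeq2). Of the markers of other cell types, 8 of 11 were above 0 for mature neutrophils, 0 of 8 for erythroid cells, 0 of 9 for B cells, 2 of 10 for dendritic cells and 1 of 1 for T and NK cells, with 0 past edgeR's threshold. At an unadjusted p under 0.05 these lists had 3 higher and 1 lower, 6 lower, 3 lower, 4 lower and 0, and DESeq2 called 1 higher, 0, 1 lower, 2 lower and 0. Their summed levels in deficient and control libraries were 1284 to 1483 and 1288 to 1437 CPM for mature neutrophils, 259 to 489 and 418 to 732 CPM for erythroid cells, and 411 to 473 and 450 to 619 CPM for B cells. They were 156 to 197 and 186 to 215 CPM for dendritic cells and 0.760 to 2.02 and 1.16 to 2.55 CPM for T and NK cells.

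**Figure D5:**
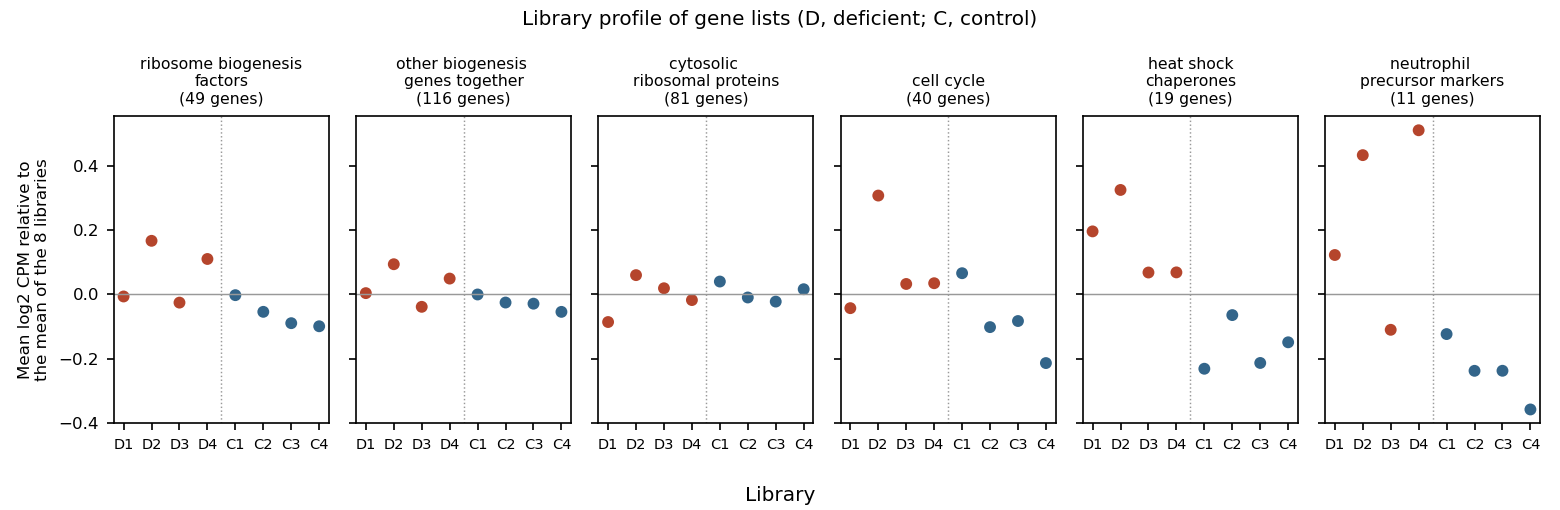
Mean log2 CPM of 6 gene lists relative to the mean of the 8 libraries (vertical) by library, deficient (D) left and control (C) right. Deficient 2 is highest for the factors (0.17), for the cell cycle (0.31) and for the chaperones (0.32), and the ribosomal protein scores of the genotypes overlap.

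Levels could be compared between genes only per length. Over the union of annotated exons, Npm1 was the highest, at 121 CPM per kb in both genotypes, and Wdr12 the lowest, at 1.0 CPM per kb in deficient and 0.859 CPM per kb in control libraries. These genes kept the first and the last place when lengths were taken from GENCODE's basic transcripts, a comparison added once the values were known. Places between them depended on that length: Fbl was 14th over all exons and 4th over basic transcripts, counted from the highest control level.

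Promoter letters were counted in the RefSeq windows from 250 bases before to 50 after the start, on both strands, for the 44 members with an entry. The E-box CACGTG, a motif that MYC and other factors bind, was in 10 of 44 members (22.7%), against 11.8% of 9372 tested genes with an entry and 7.15% of all 32851 windows. CCGGAAGT was in 11 members (25.0%), against 9.77% of the tested genes and 3.89% of all windows. GGGCGG, an SP-family motif, was in 31 members (70.5%) and 67.9% of tested genes (35.7% of all windows), TATAAA in 3 members (6.82%) and 8.43% of tested genes (13.6% of all windows), and the palindromic NRF1 motif in 0 members and 2.42% of tested genes (0.971% of all windows). The median log2 fold change was 0.12 in the 10 members with CACGTG (8 above 0) and 0.14 in the 34 without it (30 above 0). It was 0.18 in the 11 members with CCGGAAGT (10 above 0) and 0.13 in the 33 without it (28 above 0). No test was made, and a match describes letters only.

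The next 2 windows show the E-box in capitals before the start of Nop2 (chr6:125131633-125131882, plus strand) and Utp18 (chr11:93885767-93886016, minus strand), the members with CACGTG there whose values are given by library. The first base of the motif is 60 bases before the start in Nop2 and 20 before it in Utp18. A stretch within the 50 bases after the RefSeq start of Nop2 was not found as an unbroken run in the gene's reference transcripts, so the start is less certain.
Nop2: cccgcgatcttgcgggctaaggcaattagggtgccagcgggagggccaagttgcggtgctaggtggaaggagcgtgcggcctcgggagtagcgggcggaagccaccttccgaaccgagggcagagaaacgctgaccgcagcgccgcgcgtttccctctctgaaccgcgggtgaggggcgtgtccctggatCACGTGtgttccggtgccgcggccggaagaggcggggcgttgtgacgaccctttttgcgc
Utp18: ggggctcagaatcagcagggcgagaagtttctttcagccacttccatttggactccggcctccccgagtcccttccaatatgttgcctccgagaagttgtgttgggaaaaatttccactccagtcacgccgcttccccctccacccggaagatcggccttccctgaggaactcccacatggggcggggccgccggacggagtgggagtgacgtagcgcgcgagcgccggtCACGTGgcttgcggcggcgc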

How the data were processed

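The authors deposited a table whose header names a block of raw counts, and those counts per gene were used. The RNA was polyadenylated and read from 1 end, per the labels' protocols. The submitters' processing notes name GRCm38, cutadapt, STAR 2.7.3a, HTSeq 0.12.4 and DESeq2; their roles and the strandedness are not stated there. A block of 8 normalized columns of the same samples was not used. No molecular identifiers are mentioned, so PCR copies cannot be told from molecules.

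The 8 libraries were matched to samples by title and grouped by genotype. Libraries of a genotype differed by more than counting noise (chi-square 2.88 to 23.4 per degree of freedom, over genes with 20 or more counts in sum), so each counted as 1 replicate. Counts without the Cre row passed edgeR's filterByExpr at its defaults (10 per library, 15 in total), which left 12938 genes and all 49 members, scaled by TMM and fitted with edgeR 4.0.16 (R 4.3.3), robust quasi-likelihood, with genotype in the model and no covariate. The threshold was an adjusted p under 0.05, two-sided. CPM values are TMM-scaled (summed list levels, marker levels and Cre are not). SEs come from the F statistic. Member counts were 79 to 10582 per library. Scores use log2 CPM with a prior count of 2. Exact permutation tests enumerated 70 assignments. DESeq2 1.42.0 was an alternative; it gave 11341 genes an adjusted p, all 49 members among them, and the others are in none of its counts. The fit was tested on simulated data.

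Genes were placed with GENCODE M21 (GRCm38). Of 442 list entries, 2 were matched by synonym and 17 were not matched, Polr1f, Polr1g and Polr1h among them. The members, lists and tests were chosen with earlier results of these data known. Values by library are given for members past the threshold and the 2 with the smallest p in each of 7 role groups, 14 genes in all, and for Ncl, Npm1, Rcl1 and Grwd1, which were chosen after their values were seen. Of other lists, at most 2 genes past the threshold are named, besides Commd10, Myc and Chil3, the last chosen after its values were seen.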

Additional observations from a re-analysis of the deposited data

Results flagged for a closer look

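In 98 groups of 4 libraries (49 factors, each genotype by itself), 1 library stood far from the other 3 in 7 cases, by a gap that is too large a part of the group's range under Dixon's criterion; chance alone flags about 1 in 20 groups. Nop58 was at 50.2 CPM in deficient 2, with the nearest other deficient library at 39.9 CPM, and at 42.7 CPM in control 1, with the nearest other control at 31.4 CPM. Noc3l was at 16.3 CPM in deficient 4, next to 14.6 CPM. Mybbp1a was at 116 CPM in control 1, next to 113 CPM. Utp15 was at 32.0 CPM in control 3, next to 29.2 CPM. In control 2, Imp3 was at 34.2 CPM, next to 33.7 CPM, and Pes1 at 97.5 CPM, next to 90.5 CPM. All 7 were the highest library of their group, and Heatr1 and Ppan were not among them.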

How the results depend on the processing

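Over 16 other settings, 1 of them (without the shallowest libraries) added after the data were seen, 43 of the 49 factors kept their sign, and 0 changed sign with another scaling (RLE, upper-quartile or total counts). Heatr1 and Ppan were the 2 members past the threshold under every scaling and filter tried. Without robust shrinkage 0 members passed (Heatr1 adjusted p = 0.0503, Ppan 0.0555), and 41 genes in all, 20 higher and 21 lower. With DESeq2 5 members passed, all higher (Heatr1, Ppan, Ddx21, Nolc1 and Nop2), and 831 genes in all, 395 higher and 436 lower. Leaving out 1 library gave 1 to 522 genes past the threshold (0 to 225 higher, 1 to 311 lower), 0 to 6 members higher and 0 lower, and for Commd10 log2 fold changes of -0.53 to -0.42. Without the shallowest library of each genotype (deficient 3 and control 3), 0 members and 1 gene passed (0 higher, 1 lower), the median of the members was 0.17, and Commd10 had -0.47 (adjusted p = 0.0904). No paired analysis was possible because the labels give no number shared between genotypes. The member with the fewest reads had 79 counts in its shallowest library.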
